A study of Mus musculus with 8 samples.

Results

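The genes described here are 10 stress-responsive genes that have been linked to p53: *Cdkn1a*, *Btg2*, *Plk2*, *Plk3*, *Gadd45a*, *Gadd45b*, *Gadd45g*, *Sesn1*, *Sesn2* and *Ddit4l*. They were taken by name from a list of arrest, GADD45, PLK and sestrin targets. All 10 were found among the 55385 genes of the count table, and all 10 passed the filter on low counts, which kept 17445 genes. The samples were R1 mESCs, a wild-type mouse embryonic stem cell line, grown with 2i and LIF in N2B27 medium on laminin. Cells were infected for 2 days with lentivirus carrying shRNA1 (3 libraries), shRNA2 (3 libraries) or the control hairpin nt-shRNA (2 libraries) and then kept for 3 days in puromycin, so every group, the control included, carried virus and drug selection. Both test hairpins are directed at *Eftud2*, which encodes a GTPase of the U5 snRNP of the spliceosome, shRNA1 downstream of its coding sequence and shRNA2 within it. Polyadenylated RNA was sequenced and the values are fragment counts per gene.

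p53 is a transcription factor that is stabilised after DNA damage and other stresses, and its targets can halt the cell cycle, repair DNA, adjust metabolism or start apoptosis. The genes here lie on the arrest and adaptation side of that response. *Cdkn1a* encodes p21, an inhibitor of cyclin-dependent kinases, and *Btg2* encodes an antiproliferative protein that binds the CCR4-NOT deadenylase. *Plk2* and *Plk3* encode stress-inducible polo-like kinases. The GADD45 genes encode small acidic proteins that bind PCNA and p21 and activate the kinase MTK1 upstream of p38 and JNK. Sestrins restrain mTORC1 through the GATOR complexes, and *Ddit4l* encodes REDD2, another inhibitor of mTORC1. Most of these genes also answer to factors other than p53, and embryonic stem cells are known for a short G1 phase.

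The 10 genes did not move as a group. With shRNA2, *Plk2*, *Ddit4l*, *Btg2* and *Sesn2* were higher than with nt-shRNA and the 3 GADD45 genes were lower, while *Cdkn1a*, *Plk3* and *Sesn1* did not pass the test. With shRNA1, *Ddit4l*, *Plk2* and *Btg2* were higher, the 3 GADD45 genes and *Plk3* were lower, and *Cdkn1a*, *Sesn1* and *Sesn2* did not pass. A call means an adjusted p-value under 0.05 in the quasi-likelihood test of edgeR, adjusted over all genes tested. With shRNA1, 7 of the 10 genes were thus called, 3 higher and 4 lower, against 30.9% of all tested genes in either direction, 13.8% higher and 17.1% lower. With shRNA2, 7 of the 10 were again called, 4 higher and 3 lower, against a larger background of 55.9% of tested genes, 27.2% higher and 28.7% lower. Both comparisons use the same nt-shRNA libraries and so are not independent of each other.

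**Figure D1:**
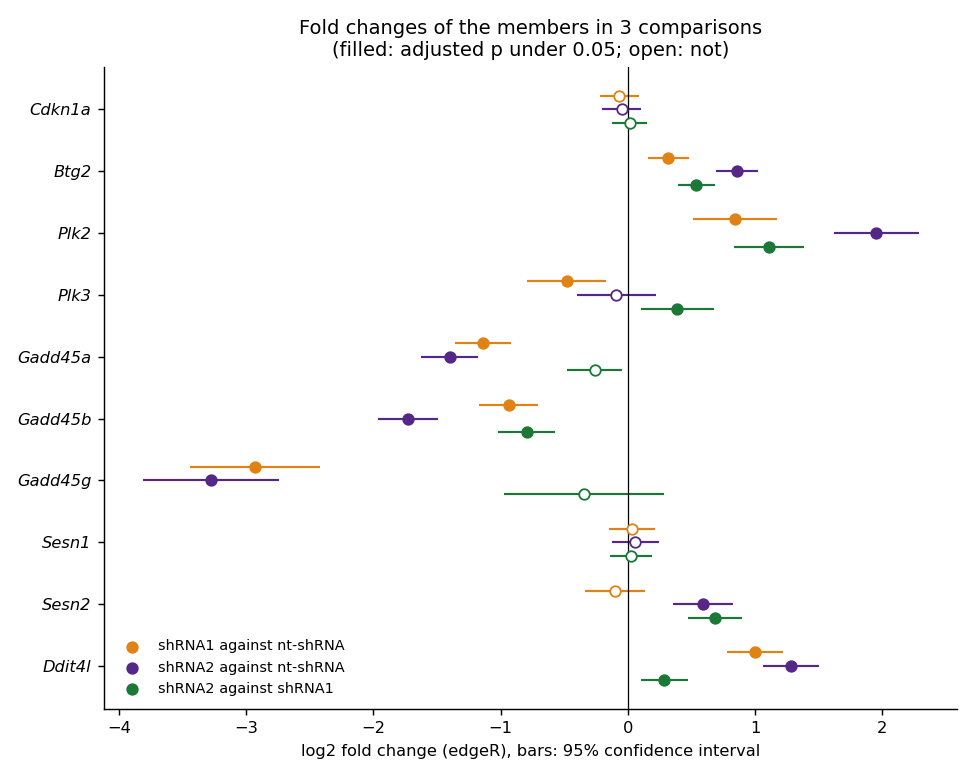
Log2 fold change (horizontal axis) of each gene (rows) with shRNA1 and shRNA2 against nt-shRNA and with shRNA2 against shRNA1, with 95% confidence intervals from edgeR as bars; filled points passed an adjusted p-value of 0.05. *Gadd45g* lies furthest to the left, at -2.93 and -3.28 against nt-shRNA, *Plk2* with shRNA2 lies furthest to the right at 1.95, and the intervals of *Cdkn1a* and *Sesn1* include 0 in all 3 comparisons.

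The median log2 fold change of the 10 genes was -0.08 with shRNA1 (SD over the shRNA1 libraries 0.0797, n = 3), beside -0.0069 over all genes tested. It was 0.0046 with shRNA2 (SD 0.0717, n = 3), beside 0.004 over all genes. Single genes lay far out in the distribution of all tested genes. For *Gadd45g*, 0.264% of tested genes had a larger change in either direction with shRNA1 and 0.47% with shRNA2. For *Plk2*, 8.37% and 3.06% of tested genes had larger changes with shRNA1 and shRNA2, respectively. *Cdkn1a* lay in the middle, with 83.6% and 92.6% of tested genes showing larger changes.

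**Figure D2:**
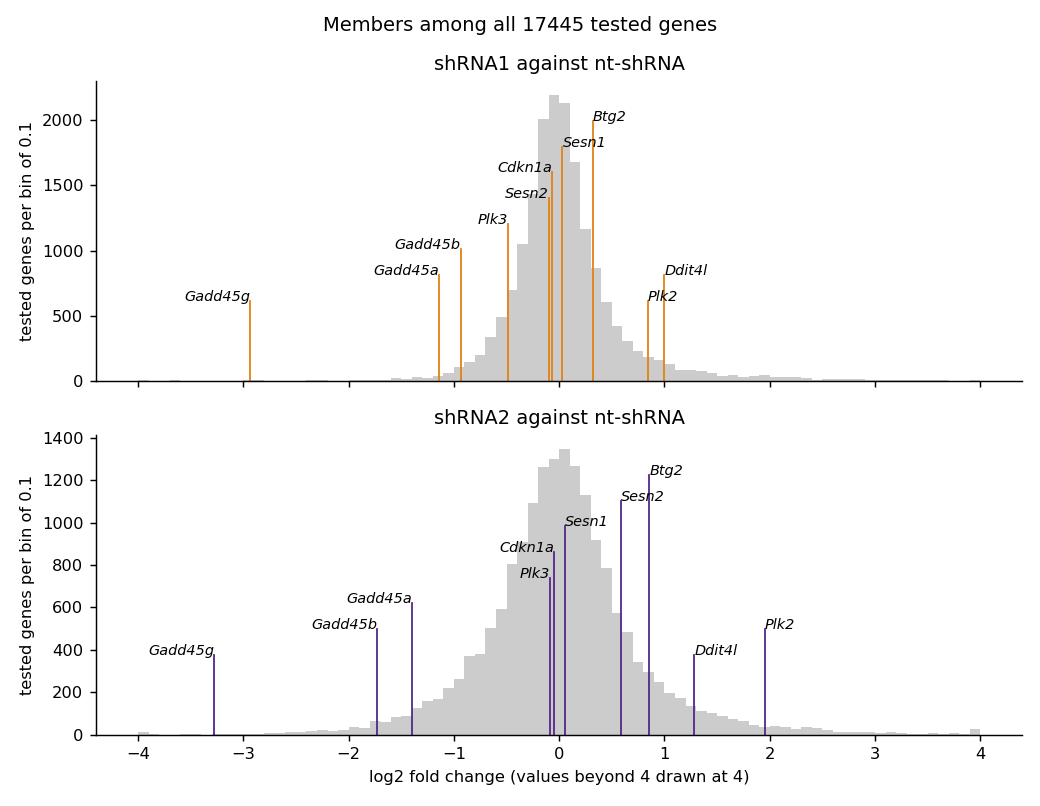
Histograms of the log2 fold changes of all tested genes (grey, number of genes per bin of 0.1) with shRNA1 (top) and shRNA2 (bottom) against nt-shRNA, with a labelled line at the value of each of the 10 genes. The GADD45 genes sit in the left tail in both panels, *Ddit4l* and *Plk2* sit in the right tail, and *Cdkn1a* and *Sesn1* sit at the centre.

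Depth ran from 19569525 to 29871048 counts per library, with scaling factors (TMM, the edgeR method that balances libraries on the bulk of their genes) between 0.935 and 1.036. Levels are given in CPM, the counts of a gene scaled to the TMM-adjusted size of its library, and 3 counts corresponded to at most 0.148 CPM. The samples carried the markers of embryonic stem cells: all 16 pluripotency markers had a mean of at least 32.4 CPM in every group, and their sum ran from 8004 to 8723 CPM. Single markers moved both ways, with 10 of the 16 higher and 4 lower with shRNA2 (62.5% and 25%, beside 27.2% and 28.7% of all tested genes) and 7 higher and 4 lower with shRNA1 (43.8% and 25%, beside 13.8% and 17.1%). Between the means of nt-shRNA and shRNA2, *Nanog* rose from 912 to 1549 CPM and *Dppa5a* fell from 2453 to 1258 CPM. The sum of 12 fibroblast and feeder markers was between 35.1 and 44.7 CPM, and *Col3a1*, *Dcn*, *Lum*, *Postn* and *S100a4* were each at or near 0 throughout. Of the 6 of these markers tested, 2 were higher and 0 lower with shRNA1 (33.3% and 0%, beside 13.8% and 17.1% of all tested genes). With shRNA2, 2 were higher and 2 lower (33.3% each, beside 27.2% and 28.7%). In that comparison *Fbn1* (9.98 to 17.1 CPM between group means) and *Col1a2* (0.429 to 1.38 CPM) were higher, and *Pdgfrb* (17.4 to 10.4 CPM) and *Twist1* (3.98 to 2.53 CPM) were lower. The sum of 16 lineage markers was 192 and 201 CPM in the nt-shRNA libraries, 157 to 180 CPM in shRNA1 and 147 to 163 CPM in shRNA2, so it moved with the groups. With shRNA2, 2 of the 13 lineage markers tested were higher and 3 lower (15.4% and 23.1%, under the shares of all tested genes). *Krt18* (71.0 to 29.1 CPM between group means), *Krt8* (64.5 to 50.2 CPM) and *Gata6* (4.87 to 2.89 CPM) fell, and *Tubb3* (10.2 to 30.5 CPM) and *Mixl1* (0.451 to 0.795 CPM) rose. The part of these markers in the results below was not tested. In such bulk samples, fewer cells of a type and less RNA per cell cannot be told apart. The labels call the replicates biological, but nothing in them says that they were separate infections, so the p-values measure the spread between these libraries.

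The target and p53 itself were examined first. *Eftud2* was at 262 and 256 CPM in nt-shRNA, at 232, 229 and 225 CPM in shRNA1 and at 198, 202 and 235 CPM in shRNA2. All shRNA1 and shRNA2 libraries lay below both nt-shRNA libraries, with shRNA2 replicate 3 the closest to them among the shRNA2 libraries. The log2 fold change was -0.29 with shRNA2 (SE 0.0678, adjusted p = 0.00122), a level of 0.817 of the control. With shRNA1 it was -0.18 (adjusted p = 0.0514), which did not pass as reported but passed in 8 of 19 alternatives. Among these was a block on the replicate number (log2 -0.21, adjusted p = 0.0206), also when joined to GC content or gene length offsets. The difference between the hairpins in *Eftud2* did not pass (log2 difference -0.11, 95% interval -0.24 to 0.02, adjusted p = 0.164), except without shRNA2 replicate 3 (adjusted p = 0.0127). The paper reports lower *Eftud2* by qPCR and less EFTUD2 protein by western blot with both hairpins. Its qPCR reductions are larger than those in these counts, and the cause of that gap was not tested. *Trp53*, which encodes p53, was at 169 and 188 CPM in nt-shRNA, at 189, 198 and 189 CPM in shRNA1 and at 261, 312 and 250 CPM in shRNA2. Its transcript was higher with shRNA2 by 0.62 (log2, SE 0.0803, adjusted p = 2.58e-06) and was not called with shRNA1 (0.11, adjusted p = 0.328), although it passed in 3 of 19 alternatives: scaling by library size alone (0.22, adjusted p = 0.041), GC content offsets with the replicate block (0.25, adjusted p = 0.00215) and gene length offsets with the block (0.17, adjusted p = 0.046).

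*Cdkn1a* was at 232 and 194 CPM in the nt-shRNA libraries, at 209, 192 and 209 CPM in shRNA1 and at 218, 198 and 202 CPM in shRNA2. The 3 groups overlapped fully, and the 2 nt-shRNA libraries lay further apart than the libraries of either test hairpin. The log2 fold change was -0.07 with shRNA1 (95% interval -0.22 to 0.09, adjusted p = 0.525) and -0.05 with shRNA2 (-0.20 to 0.10, adjusted p = 0.585). The sign was not stable: scaling by library size alone gave 0.05 with shRNA1 and 0.04 with shRNA2, and removing a trend on GC content gave 0.01 and 0.06. The upper bounds of the intervals correspond to a rise of 0.09 and 0.10 on the log2 scale. *Cdkn1a* lies at chr17:29090976-29100727 in GRCm38, and 7.68% of its exon bases overlap a gene on the other strand, where fragments assigned to both genes were not counted.

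*Cdkn1a* is the best known p53 target of the set, so the promoter sequence before its upstream RefSeq start (GRCm38.p6, chr17:29090729-29090975, plus strand) are shown, with the matches to the p53 half-site in capitals.
Cdkn1a: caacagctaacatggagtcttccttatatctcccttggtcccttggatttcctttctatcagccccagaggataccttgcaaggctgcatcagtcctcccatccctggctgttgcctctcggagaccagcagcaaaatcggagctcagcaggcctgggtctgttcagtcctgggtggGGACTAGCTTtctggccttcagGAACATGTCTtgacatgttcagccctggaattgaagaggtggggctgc
A p53 half-site is 10 bases long and binding sites usually pair half-sites. Only exact matches to RRRCWWGYYY were marked, where R is A or G, W is A or T and Y is C or T. A stretch with a mismatch, such as the tgacatgttc directly after GAACATGTCT, was thus neither marked nor counted. The matches begin 73 and 51 bases before the start and were the sole pair of exact matches at most 13 bases apart in the windows of the 10 genes. Such a pair was found in 24 of 32851 RefSeq promoter windows of 300 bases, or 0.0731%. Single half-sites were also found in the windows of *Gadd45a*, *Ddit4l* and the downstream start of *Sesn1*, beside 8.36% of all windows. These matches are descriptions of sequence and not evidence of binding, and p53 sites outside the windows were not searched.

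*Btg2* (chr1:134075170-134079120) was higher with both hairpins. Its level was 76.2 and 67.3 CPM in nt-shRNA, 88.6, 90.5 and 89.3 CPM in shRNA1 and 136, 138 and 116 CPM in shRNA2. The groups did not overlap, and the shRNA1 libraries lay within 2 CPM of each other. The rise was 1.25-fold with shRNA1 (log2 0.32, SE 0.0777, adjusted p = 0.00425) and 1.81-fold with shRNA2 (log2 0.86, SE 0.0781, adjusted p = 3.34e-08). The call with shRNA1 was lost when nt-shRNA replicate 2 was left out (log2 0.23, adjusted p = 0.107).

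**Figure D3:**
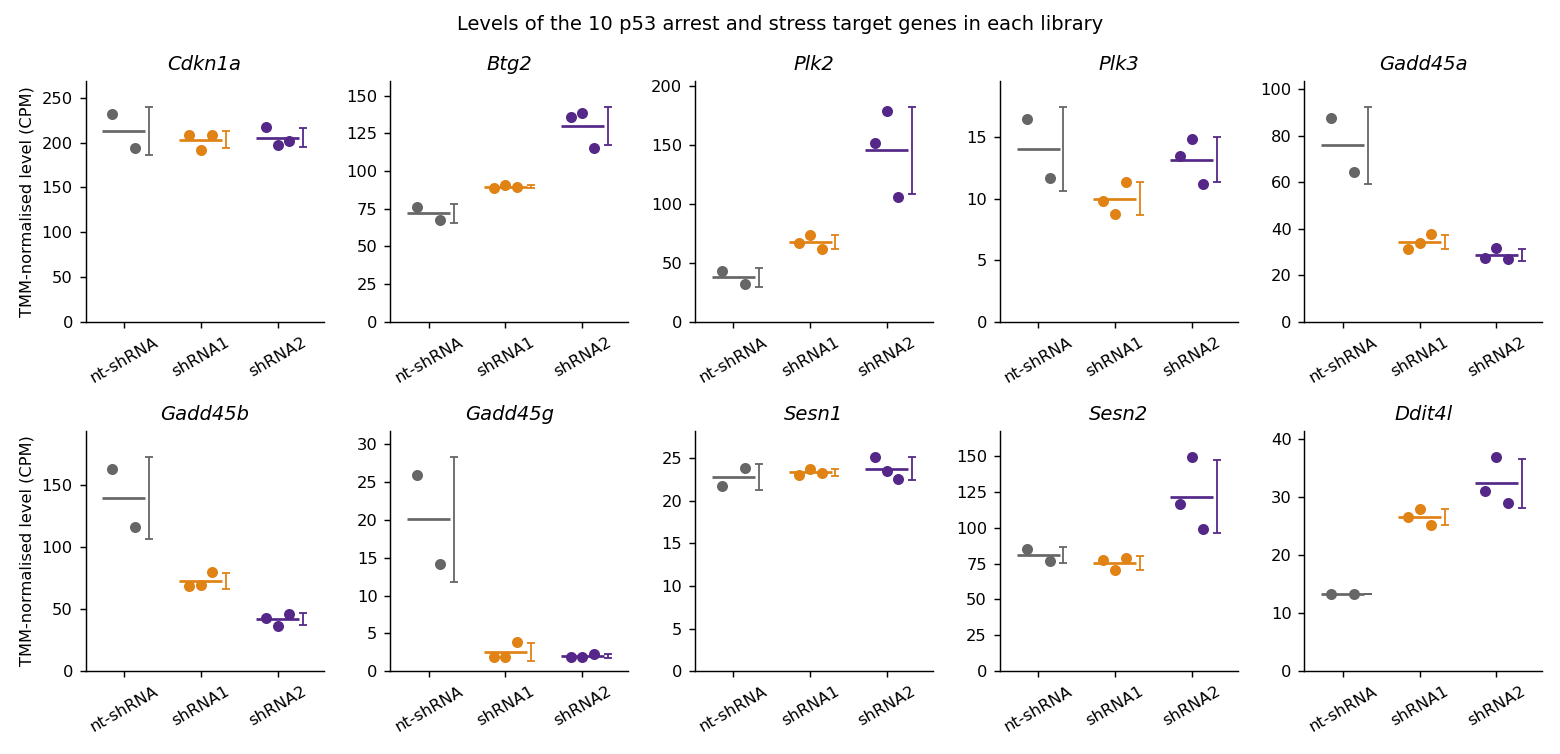
Level in CPM (vertical axes, from 0) of each of the 10 genes in every library, grouped by hairpin; points are libraries, horizontal lines are group means and the bars beside them show 1 SD (n = 2 for nt-shRNA, 3 for the others). *Gadd45g* falls from 25.9 and 14.2 CPM to at most 3.85 CPM, *Plk2* climbs from nt-shRNA through shRNA1 to shRNA2, and the groups overlap for *Cdkn1a* and *Sesn1*.

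The polo-like kinases were called in different directions with shRNA1. *Plk2* (chr13:110395046-110400844) was at 43.1 and 31.9 CPM in nt-shRNA, at 66.8, 73.8 and 61.5 CPM in shRNA1 and at 151, 179 and 106 CPM in shRNA2. No library of one group overlapped another group, and the closest shRNA2 and nt-shRNA libraries were still 2.45-fold apart. The rise was 1.80-fold with shRNA1 (log2 0.84, SE 0.157, adjusted p = 4.54e-04) and 3.88-fold with shRNA2 (log2 1.95, SE 0.159, adjusted p = 7.88e-09). *Plk2* also varied most among the shRNA2 libraries, with a coefficient of variation of 25.5%.

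*Plk3* (chr4:117128655-117133963) was low, at 16.5 and 11.6 CPM in nt-shRNA, 9.83, 8.74 and 11.4 CPM in shRNA1 and 13.4, 14.8 and 11.2 CPM in shRNA2. The highest shRNA1 library was 1.02-fold below the lower nt-shRNA library, and shRNA2 overlapped nt-shRNA. *Plk3* was called lower with shRNA1 (log2 -0.48, SE 0.150, adjusted p = 0.0199), but the call was lost in 6 of 19 alternatives. It was lost with library size alone (log2 -0.37, adjusted p = 0.0624), with GC content offsets (-0.35, 0.0681) and with these and the replicate block (-0.30, 0.103). The others left out nt-shRNA replicate 1 (log2 -0.21), shRNA1 replicate 1 (-0.47, adjusted p = 0.0635) or shRNA1 replicate 2 (-0.40, adjusted p = 0.0921). With shRNA2 its value was -0.09 (95% interval -0.40 to 0.22, adjusted p = 0.621), and the sign turned to 0.11 once a GC trend was removed. Of its exon bases, 3.32% overlap a gene on the other strand.

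*Plk2* and *Btg2*, both higher with both hairpins, share in their promoter windows the 8 letters of a full cAMP response element, TGACGTCA, which ATF and CREB factors are known to bind. The 250 bases before the start of each are shown with that element in capitals, *Plk2* at chr13:110394794-110395043 (plus strand) and *Btg2* at chr1:134079156-134079405 (minus strand), GRCm38.p6.
Plk2: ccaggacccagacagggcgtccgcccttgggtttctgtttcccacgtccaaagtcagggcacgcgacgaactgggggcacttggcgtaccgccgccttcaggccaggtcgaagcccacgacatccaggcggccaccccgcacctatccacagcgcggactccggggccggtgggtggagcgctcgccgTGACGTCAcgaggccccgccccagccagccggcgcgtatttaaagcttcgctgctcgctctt
Btg2: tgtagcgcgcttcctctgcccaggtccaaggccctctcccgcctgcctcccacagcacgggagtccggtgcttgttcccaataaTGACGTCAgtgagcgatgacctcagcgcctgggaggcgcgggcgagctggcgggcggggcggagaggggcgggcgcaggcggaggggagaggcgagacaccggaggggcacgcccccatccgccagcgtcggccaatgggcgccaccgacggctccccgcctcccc
The element begins 62 bases before the start of *Plk2* and 166 bases before that of *Btg2*. It was searched on both strands and is a palindrome. It occurred in 1.79% of all 32851 windows and in none of the windows of the other 8 genes. This motif and the motifs other than the p53 site were chosen after the promoters of the 10 genes had been read and with the fold changes known, so the match is not evidence of regulation.

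The GADD45 genes fell together and were the sole family among the 10 in which every member was called in the same direction with both hairpins. Their summed level was between 195 and 277 CPM in nt-shRNA, 102 to 122 CPM in shRNA1 and 69.9 to 75.7 CPM in shRNA2. *Gadd45a* (chr6:67035096-67037457) was at 87.5 and 64.1 CPM in nt-shRNA, at 31.4, 33.9 and 37.6 CPM in shRNA1 and at 27.5, 31.6 and 26.9 CPM in shRNA2. Every shRNA1 and shRNA2 library lay at least 1.71-fold below the lower nt-shRNA library. *Gadd45a* dropped to 0.454 of the control level with shRNA1 (log2 -1.14, SE 0.107, adjusted p = 3.84e-07) and to 0.379 with shRNA2 (log2 -1.40, SE 0.108, adjusted p = 4.04e-09). A transcript on the opposite strand, *E230016M11Rik*, covers 19.1% of its exon bases, and fragments assigned to both genes were not counted.

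*Gadd45b* (chr10:80930073-80932204) was at 163 and 116 CPM in nt-shRNA, at 69.1, 69.5 and 80.2 CPM in shRNA1 and at 43.4, 36.5 and 46.4 CPM in shRNA2. The 3 groups stood apart in that order. It fell to 0.522 of the control level with shRNA1 (log2 -0.94, SE 0.110, adjusted p = 4.51e-06) and to 0.301 with shRNA2 (log2 -1.73, SE 0.113, adjusted p = 5.93e-10).

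*Gadd45g* (chr13:51846678-51848468) showed the largest changes of the 10 genes. Its counts were 692 and 408 in nt-shRNA, 42, 38 and 108 in shRNA1 and 42, 42 and 51 in shRNA2, which correspond to 25.9 and 14.2 CPM, to 1.89, 1.88 and 3.85 CPM and to 1.95, 1.89 and 2.34 CPM. All KD libraries lay below both controls, by at least 3.69-fold with shRNA1 and 6.07-fold with shRNA2, and all were well above the level of 3 counts. *Gadd45g* fell to 0.131 of the control level with shRNA1 (log2 -2.93, SE 0.245, adjusted p = 1.12e-07) and to 0.103 with shRNA2 (log2 -3.28, SE 0.256, adjusted p = 4.69e-09). The GADD45 transcripts are GC-rich, at 57.0% to 60.5% GC. With a GC trend removed in each library, the log2 fold changes of *Gadd45a*, *Gadd45b* and *Gadd45g* were -1.01, -0.81 and -2.80 for shRNA1. For shRNA2 they were -1.21, -1.55 and -3.08, and all were still called.

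The promoter windows of *Gadd45a* and *Gadd45g* contain the octamer ATTTGCAT or its reverse complement, the letters that POU factors such as Oct4 are known to bind. The sequence before each gene is shown, with matches in capitals, *Gadd45a* at chr6:67037458-67037657 (minus strand) and *Gadd45g* at chr13:51846425-51846674 (plus strand), GRCm38.p6. In *Gadd45a* the capitals mark 2 octamers, and in *Gadd45g* they mark an E-box, CACGTG, then an octamer.
Gadd45a: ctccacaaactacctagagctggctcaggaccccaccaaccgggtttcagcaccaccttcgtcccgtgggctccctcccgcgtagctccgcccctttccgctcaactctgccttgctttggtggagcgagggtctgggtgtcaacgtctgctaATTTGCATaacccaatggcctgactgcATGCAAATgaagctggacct
Gadd45g: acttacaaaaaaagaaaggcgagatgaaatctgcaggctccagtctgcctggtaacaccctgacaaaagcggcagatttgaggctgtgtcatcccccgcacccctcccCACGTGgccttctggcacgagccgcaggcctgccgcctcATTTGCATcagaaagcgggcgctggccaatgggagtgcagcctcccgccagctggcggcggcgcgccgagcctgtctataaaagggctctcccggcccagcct
The octamers begin 97 and 70 bases before the RefSeq start of *Gadd45a* and 103 bases before that of *Gadd45g*. The *Gadd45a* stretch shown has 200 bases. It ends where the annotated gene begins, upstream of that RefSeq start, so its octamers lie closer to its end than these distances. No octamer was found in the *Gadd45b* window, and 1.74% of all windows hold one. The E-box was found in *Gadd45g* and *Gadd45b* and in 7.15% of all windows. A TATAAA was found in *Gadd45b*, *Gadd45g* and *Ddit4l* and in 13.6% of all windows. It begins 46 and 27 bases before the start of *Gadd45b* and *Gadd45g*, but after the start of *Ddit4l*, at base 36. In all, 5 motifs and the paired p53 site were searched in 12 windows of the 10 genes.

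The sestrins and *Ddit4l*, which restrain mTORC1, split. *Sesn1* (chr10:41809935-41908424) was at 21.7 and 23.9 CPM in nt-shRNA, at 23.0, 23.7 and 23.2 CPM in shRNA1 and at 25.2, 23.5 and 22.6 CPM in shRNA2. All groups overlapped, and the log2 fold changes were 0.03 with shRNA1 (95% interval -0.15 to 0.21, adjusted p = 0.818) and 0.06 with shRNA2 (-0.12 to 0.24, adjusted p = 0.589). Without nt-shRNA replicate 1 these turned to -0.03 and -0.01.

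*Sesn2*, the sestrin that is also a leucine sensor and an ATF4 target (chr4:132492032-132510501), was at 84.9 and 76.8 CPM in nt-shRNA, at 77.4, 70.2 and 78.8 CPM in shRNA1 and at 116, 150 and 99.0 CPM in shRNA2. The shRNA2 libraries lay above all others, and shRNA1 overlapped nt-shRNA. *Sesn2* rose 1.51-fold with shRNA2 (log2 0.59, SE 0.113, adjusted p = 2.06e-04). With shRNA1 the value was -0.10 (95% interval -0.33 to 0.14, adjusted p = 0.544), and its sign changed to 0.02 with scaling by library size alone and to 0.04 with a GC trend removed.

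*Ddit4l* (chr3:137621612-137628333) was at 13.3 CPM in both nt-shRNA libraries, at 26.6, 27.9 and 25.3 CPM in shRNA1 and at 31.1, 37.0 and 29.0 CPM in shRNA2. Every KD library lay at least 1.90-fold above the controls. It rose 2.00-fold with shRNA1 (log2 1.00, SE 0.105, adjusted p = 1.42e-06) and 2.43-fold with shRNA2 (log2 1.28, SE 0.105, adjusted p = 8.53e-09).

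Separation of the libraries gave the same picture as the test. With shRNA1, 3 of the 10 genes had all libraries above and 4 all libraries below nt-shRNA, where 26.6% and 30.2% of all tested genes did so (56.8% in either direction). With shRNA2, 4 lay above and 3 below, where 35.4% and 36% of tested genes did so (71.4% in either direction). With so few libraries such separation was common across the transcriptome.

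The hairpins were then compared directly, which asks whether a gene responded differently to them and leaves the control libraries out of the difference. shRNA2 exceeded shRNA1 in 5 genes and fell below it in 1, where 35.6% of tested genes were called in either direction, 16.9% higher and 18.7% lower. *Plk2* differed most, at 2.16-fold (log2 1.11, SE 0.133, adjusted p = 7.21e-06). Among the genes higher with shRNA2 it was followed by *Sesn2* at 1.61-fold (log2 0.69, SE 0.101, adjusted p = 5.08e-05) and *Btg2* at 1.45-fold (log2 0.54, SE 0.0684, adjusted p = 1.34e-05). *Gadd45b* was lower with shRNA2 than with shRNA1 (log2 -0.79, SE 0.106, adjusted p = 2.13e-05), a larger difference than that of *Sesn2*. *Ddit4l* (log2 0.29, adjusted p = 0.0164) and *Plk3* (log2 0.39, adjusted p = 0.0347) passed more narrowly. *Ddit4l* lost the call without shRNA1 replicate 3 (adjusted p = 0.0649) or shRNA2 replicate 2 (adjusted p = 0.119). *Plk3* lost it without shRNA1 replicate 1 (adjusted p = 0.0922), shRNA1 replicate 2 (0.139), shRNA2 replicate 1 (0.0903) or shRNA2 replicate 2 (0.154), and its libraries overlapped. Without shRNA2 replicate 2 the number higher was 3.

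*Gadd45a* and *Gadd45g* did not pass in the direct comparison. The log2 difference of *Gadd45a* was -0.26 (95% interval -0.48 to -0.05, adjusted p = 0.0554), close to the threshold, and it was called in 7 of 19 alternatives, among them without shRNA1 replicate 1, shRNA2 replicate 2 or either nt-shRNA replicate, where 2 genes were called lower. That of *Gadd45g* was -0.35 (-0.97 to 0.28, adjusted p = 0.392), a wide interval that leaves differences in either direction, and without shRNA1 replicate 3 it was 0.13. *Cdkn1a* (0.02, -0.12 to 0.15) and *Sesn1* (0.03, -0.14 to 0.19) had narrow intervals around 0. All libraries of shRNA2 lay above shRNA1 for 4 of the 10 genes and below for 1, where 23.6% and 24.1% of tested genes did so (47.8% in either direction).

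Because the genes differ in transcript length, levels between genes were compared as CPM per kilobase of exon. In nt-shRNA, *Gadd45b* was the most abundant of the 10 at 88.0 CPM per kilobase, followed by *Cdkn1a* at 59.9, *Gadd45a* at 43.0, *Btg2* at 26.2 and *Sesn2* at 23.3. *Gadd45g* (17.1) came next and its libraries overlapped those of *Sesn2*. *Plk2* (8.35), *Sesn1* (5.72), *Plk3* (5.55) and *Ddit4l* (4.56) were the lowest, with *Sesn1* and *Plk3* overlapping. In shRNA2, *Cdkn1a* led at 57.9 CPM per kilobase, followed by *Btg2* (47.4), *Sesn2* (35.0), *Plk2* (32.3) and *Gadd45b* (26.5), each overlapping the next gene from *Btg2* to *Gadd45b*. *Gadd45g* was last at 1.76 CPM per kilobase in shRNA2 and at 2.17 in shRNA1. *Gadd45b* thus moved from first of the 10 in nt-shRNA to the second place in shRNA1 and the fifth in shRNA2, and *Plk2* from the seventh to the sixth and the fourth.

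The libraries of 1 group also differed in these genes. Of the 10, 8 were higher in nt-shRNA replicate 1 than in replicate 2, while 50.4% of all tested genes were. The median absolute log2 ratio of the nt-shRNA libraries was 0.346 for the 10 genes and 0.110 for all tested genes. *Gadd45g* differed most, at 1.82-fold between the nt-shRNA libraries, a ratio that 3.19% of tested genes exceeded, and *Plk3* (1.41-fold), *Gadd45b* (1.41-fold), *Gadd45a* (1.36-fold) and *Plk2* (1.35-fold) followed. With nt-shRNA replicate 1 or replicate 2 left out, the log2 fold changes of the GADD45 genes and *Plk2* were all still called with both hairpins. In shRNA2, 7 of the 10 genes were lowest in replicate 3, against 35.2% of tested genes. That library also had the highest *Eftud2* of its group, at 235 CPM against 198 and 202 CPM, and the part of this in the results was not tested.

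**Figure D4:**
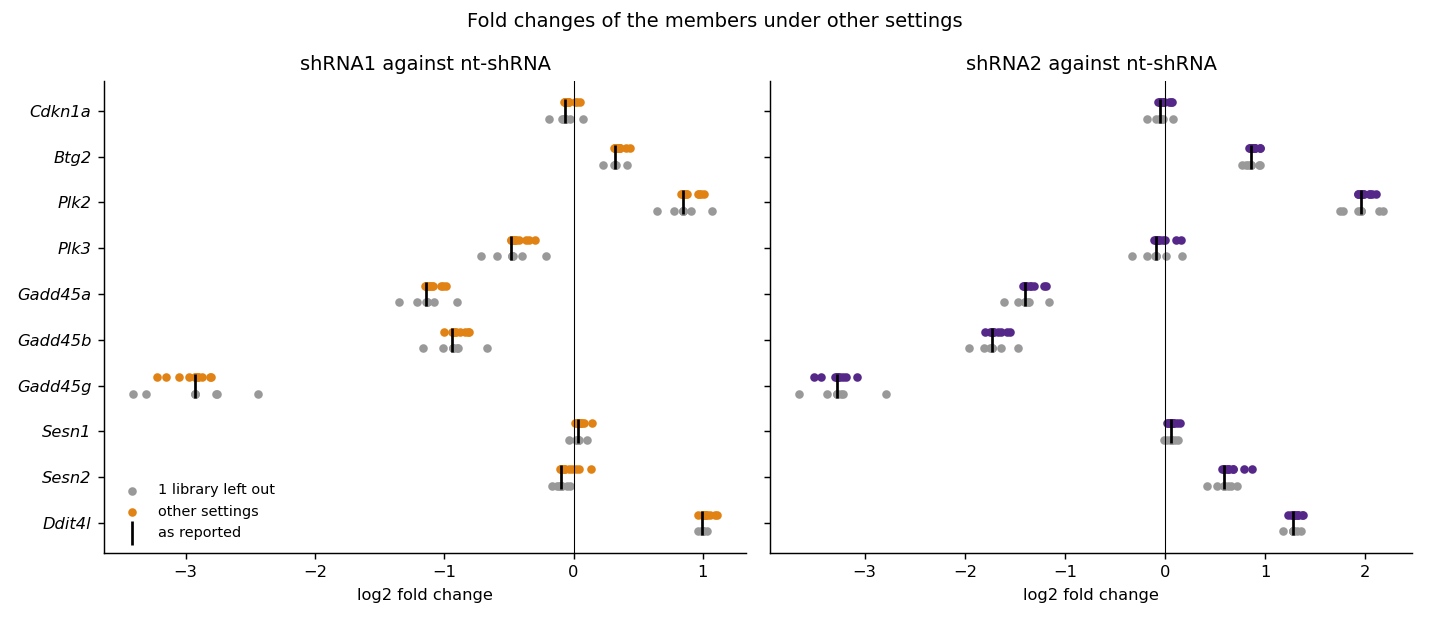
Log2 fold change (horizontal axis) of each gene with shRNA1 (left) and shRNA2 (right) against nt-shRNA as reported (black bar), with other settings of the analysis (coloured points) and with 1 library left out (grey points). The GADD45 genes stay below 0 and *Plk2*, *Btg2* and *Ddit4l* above 0 throughout, while points of *Cdkn1a* and *Sesn1*, of *Sesn2* with shRNA1 and of *Plk3* with shRNA2 fall on both sides of 0.

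The 10 genes differ in structure. The principal transcripts of *Plk2* and *Plk3* have 14 and 15 exons, those of *Sesn1* and *Sesn2* have 10 each, those of the GADD45 genes have 4 each, and those of *Cdkn1a*, *Ddit4l* and *Btg2* have 3, 3 and 2. The GC content, summed over all annotated transcripts of a gene, was 47.6% for *Ddit4l*, 49.1% for *Plk2* and 49.7% for *Btg2*, the 3 genes higher with both hairpins. It was 48.5% for *Sesn1* and 53.7% for *Cdkn1a*, which were called with neither hairpin. For *Sesn2*, called higher with shRNA2 alone, it was 58.7%, and for *Plk3*, called lower with shRNA1 alone, 58.6%.

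The genes whose profiles lay closest to those called in both comparisons were found by the root mean square difference of centred log2 CPM over the 8 libraries, among 14320 genes with a mean of at least 1 CPM. They were *Nkx2-9*, *Ttn* and *Rnd1* for *Plk2* (differences 0.105 to 0.145), *Lhx6*, *Wdr1* and *Mcts2* for *Btg2* (0.0434 to 0.0536) and *Tex19.1*, *mt-Tl1* and *Son* for *Ddit4l* (0.0848 to 0.0938). They were *9830144P21Rik*, *Cd68* and *Cnn2* for *Gadd45a* (0.118 to 0.146) and *Glipr2*, *E330020D12Rik* and *Gstm1* for *Gadd45b* (0.0965 to 0.118). For *Gadd45g* they were *Mir6236*, *Igfbp4* and *Hist1h4d* (0.51 to 0.565). The measure is not scaled to the size of a gene's change, so differences can run larger for genes that moved more and are not comparable between members.

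Other p53 targets were mostly higher with shRNA2. Of 36 such genes tested, 23 were higher and 8 lower with shRNA2 (median log2 fold change 0.45), and 9 were higher and 6 lower with shRNA1 (median 0.08). In shares, 63.9% were higher with shRNA2, beside 27.2% of all tested genes, and 25% with shRNA1, beside 13.8%. The shares called lower were not above those of all tested genes: 22.2% beside 28.7% with shRNA2 and 16.7% beside 17.1% with shRNA1. With shRNA2, *Fbxw7*, a ubiquitin ligase subunit, rose 2.79-fold (adjusted p = 1.27e-09), *Mdm2*, the ubiquitin ligase that degrades p53, rose 2.33-fold (adjusted p = 8.99e-09) and *Ppm1d*, a phosphatase that dampens the damage response, rose 2.67-fold (adjusted p = 1.57e-08). *Ccng1* rose 1.45-fold (adjusted p = 2.15e-06) and *Zmat3* 1.48-fold (adjusted p = 4.38e-06). *Ccng2* fell to 0.433 (adjusted p = 7.44e-08), *Dcxr* to 0.562 (adjusted p = 1.26e-06) and *Ddb2*, a DNA damage sensor, to 0.603 of the control level (adjusted p = 1.2e-05). *Mdm2* was 1.30-fold higher with shRNA1 (log2 0.37, adjusted p = 0.00715). The call was lost without nt-shRNA replicate 2 (log2 0.26). It was also lost by DESeq2, where the change was about as large (log2 0.38, adjusted p = 0.0519). *Cdkn1a* thus did not pass the test in the same libraries in which *Mdm2*, *Plk2* and *Btg2* were higher.

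Other genes of the same families, in a list that also holds *Gadd45gip1*, a GADD45-binding protein and no relative, also went both ways. Of 12 tested, 2 were higher and 6 lower with shRNA2 (16.7% and 50%, beside 27.2% and 28.7% of all tested genes). With shRNA1, 2 were higher and 3 lower (16.7% and 25%, beside 13.8% and 17.1%). *Sesn3* was higher with both hairpins (1.44-fold with shRNA1, adjusted p = 6.92e-05; 1.26-fold with shRNA2, adjusted p = 0.00178), while *Sesn1* did not pass. *Tob2* rose 1.45-fold with shRNA2 (adjusted p = 1.06e-04). *Btg1*, a paralog of *Btg2*, went the other way, to 0.740 of the control level with shRNA1 (adjusted p = 5.99e-04) and 0.595 with shRNA2 (adjusted p = 4.53e-07). *Cdkn1b*, which encodes the p21 relative p27, was at 0.787 and 0.786 of the control level (adjusted p = 3.36e-04 and 1.02e-04).

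*Atf4*, the factor of the integrated stress response that also acts on *Sesn2*, and its targets were lower: 16 of 20 genes, *Atf4* among them (0.635 of the control level with shRNA1, adjusted p = 1.61e-05, and 0.706 with shRNA2, adjusted p = 6.66e-05), fell with each hairpin and the other 4 did not pass, with medians of -0.47 and -0.72. That is 80% lower, beside 17.1% of all tested genes with shRNA1 and 28.7% with shRNA2. *Nupr1* fell to 0.321 (adjusted p = 1.12e-09) and *Phgdh*, of serine synthesis, to 0.549 of the control level (adjusted p = 4.89e-08) with shRNA2, in which *Sesn2* rose. Among 21 immediate early genes tested, the class of fast growth factor and stress response genes, 12 were lower and 5 higher with shRNA2 (57.1% and 23.8%, beside 28.7% and 27.2% of all tested genes). With shRNA1, 5 were lower and 1 higher (23.8% and 4.76%, beside 17.1% and 13.8%). *Ier3* fell to 0.325 (adjusted p = 1.7e-09) and *Zfp36* to 0.388 (adjusted p = 2.22e-08) with shRNA2. *Myc* was higher with shRNA2 (log2 2.83, adjusted p = 6.99e-05), at 64, 139 and 34 counts against 8 and 20 in nt-shRNA. The value was 2.16 without shRNA2 replicate 2 and 2.36 and 3.56 without nt-shRNA replicate 1 and replicate 2, and it was called each time. *Fosb* was called higher with shRNA2 (log2 2.40, 95% interval 1.32 to 3.49, adjusted p = 6.33e-04), at 9, 18 and 12 counts against 3 in each nt-shRNA library, close to the limit of detection.

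Cell cycle genes that p21 is known to repress through the DREAM complex were called in both directions with shRNA2, where 9 of 25 were higher and 8 lower with a median of -0.0097. These shares, 36% and 32%, were near those of all tested genes, 27.2% and 28.7%. With shRNA1, 1 was higher and 8 lower (4% and 32%, beside 13.8% and 17.1%). *Foxm1* (1.80-fold, adjusted p = 6.76e-09) and *Aurka* (1.37-fold, adjusted p = 4.25e-06) rose with shRNA2, and *Ccnb2* (0.664 of the control level, adjusted p = 1.85e-06) and *E2f1* (0.767, adjusted p = 2.1e-04) fell. These values stand beside a *Cdkn1a* level that did not pass the test with either hairpin.

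**Figure D5:**
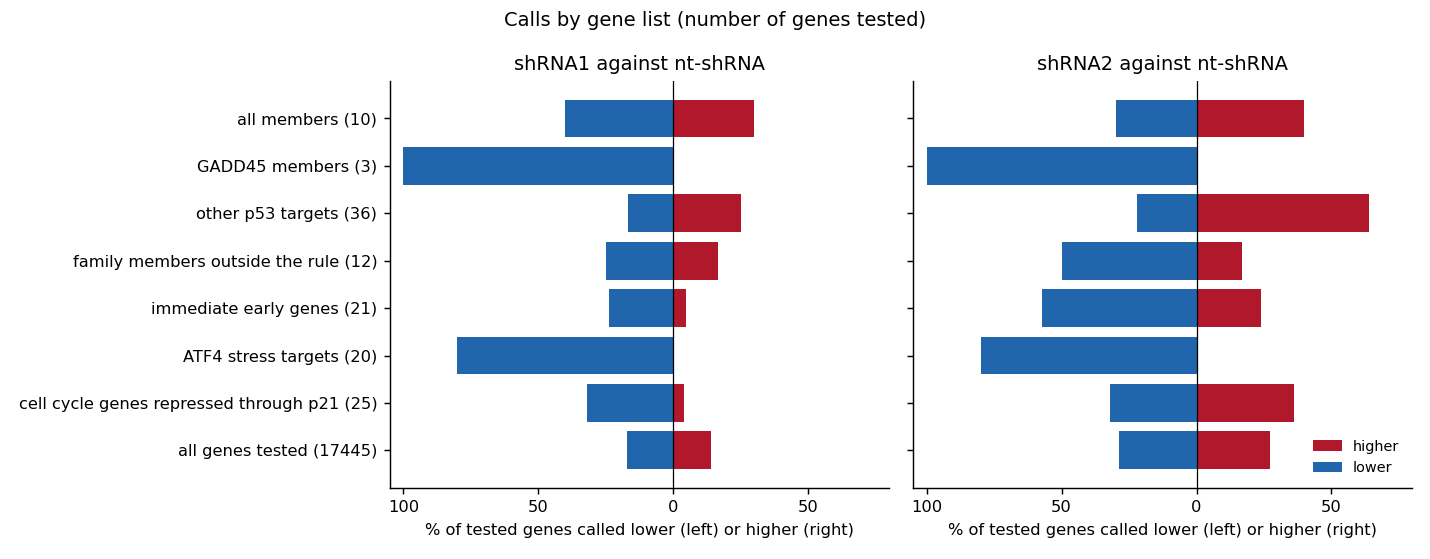
Share of the tested genes of each list that were called higher (right) or lower (left) with shRNA1 and shRNA2 against nt-shRNA, in percent, with the number tested in parentheses and all tested genes in the last row. All 3 GADD45 genes were lower in both panels, the list of *Atf4* and its targets was lower at 80% in both, and other p53 targets were higher at 63.9% with shRNA2 and 25% with shRNA1.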

How the data were processed

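RNA-seq libraries of 8 samples were analysed. The authors aligned reads with STAR to mm10, counted fragments on exons with featureCounts 1.6.2 (GENCODE M24, unstranded, without multi-mapping fragments or those overlapping more than 1 gene), tested with DESeq2 and deposited raw counts per gene with the gene length in bases. The 55385 identifiers were named through GENCODE M21, which matched 55144. No per-sample column was left out.

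In R 4.3.3, edgeR 4.0.16 was used with filterByExpr (minimum count 10), TMM and glmQLFit and glmQLFTest in 1 unblocked fit over all 8 libraries. P-values were adjusted by Benjamini-Hochberg over 17445 genes and called under 0.05. Standard errors were taken from the F statistic, and intervals are 95%. CPM and CPM per kilobase used the TMM-scaled library sizes. The code was tested on simulated data. Chi-square statistics per gene between replicates were 3.00 to 11.6, so no library repeated another. The biological coefficient of variation was 0.0638.

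The members and lists were chosen with earlier results of these data known, and the share of lists called is a description without a test. Named genes were all 10 members, *Eftud2*, *Trp53*, *Mdm2*, *Ccng1*, *Zmat3*, the 3 other p53 targets called in each direction and the 2 genes of each other list called in each direction with the smallest adjusted p-values under shRNA2, and the 3 nearest profiles. Markers of cell types, *Atf4* and *Gadd45gip1* were named after their values were seen. Promoters are from RefSeq (GRCm38.p6), where all 10 members matched, with 250 bases before and 50 after the start. Alternatives tried were each library left out, a block on the replicate number, DESeq2 1.42.0, edgeR with the size factors of DESeq2 or with unscaled library sizes, a fit of only 2 groups, every gene with a count kept, a minimum of 10 counts per library, and offsets for GC content (lowess span 0.3, available for 17433 tested genes) or gene length with and without the block. Figures used matplotlib 3.10.9. The hairpin sequences were not used here.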

Additional observations from a re-analysis of the deposited data

Results flagged for a closer look

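The responses to the hairpins differed by the direct test of shRNA2 against shRNA1 in 6 of the 10 genes, beside 35.6% of all tested genes, by edgeR with adjustment over all genes. The log2 differences were 1.11 for *Plk2*, 0.69 for *Sesn2*, 0.54 for *Btg2*, 0.39 for *Plk3*, 0.29 for *Ddit4l* and -0.79 for *Gadd45b*. Of these, *Plk2*, *Sesn2*, *Btg2* and *Gadd45b* had shRNA2 libraries that did not overlap those of shRNA1 and kept the call in all 19 alternatives. *Ddit4l* lost it in 2 and *Plk3* in 4, each with a library left out. Groups of 2 or 3 libraries are too small for the test of single outlying samples.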

How the results depend on the processing

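Of 30 results (10 genes in 3 comparisons), 16 kept their direction and their side of the threshold in all 19 alternatives. Without TMM, the all-gene median went to 0.107 with shRNA1 and 0.0927 with shRNA2 and the share of higher calls from 44.7% to 70.5% and from 48.7% to 58.9%. Under it the median of the 10 genes was 0.033 with shRNA1 and 0.0943 with shRNA2. With GC content offsets these medians were 0.0106 and 0.0836, and with GC content offsets and the replicate block 0.0256 and 0.1144. With each library left out they ran from -0.1804 to -0.0289 and from -0.0332 to 0.1288. The number lower in shRNA2 against shRNA1 was 2 with library size alone, no filter and only the groups compared, and 1 to 2 with a library left out, and the number higher was 3 to 5 with a library left out.

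Directions turned for genes that were not called. *Cdkn1a* was 0.0492 (library size alone), 0.0134 (GC content) and 0.0278 (GC content with the replicate block) with shRNA1, and 0.0415, 0.0573 and 0.0715 with shRNA2. In shRNA2 against shRNA1 it was -0.0077 with library size alone and -5e-04 with no filter. *Sesn2* with shRNA1 was 0.0168, 0.0414 and 0.1354 under the same 3 settings. *Plk3* with shRNA2 was 0.11 with GC content offsets and 0.1574 with these and the block. *Cdkn1b* between the hairpins was 0.0108 with gene length offsets and 0.0107 with these and the block. With a library left out, *Cdkn1a* ran from -0.1916 to 0.0701 with shRNA1, from -0.1777 to 0.0831 with shRNA2 and from -0.0259 to 0.045 between the hairpins. *Sesn1* ran from -0.0342 to 0.1013, from -0.0105 to 0.1259 and from -0.0167 to 0.0624. *Plk3* with shRNA2 ran from -0.3258 to 0.1746, and *Gadd45g* between the hairpins from -0.5212 to 0.1282. *Myc* with shRNA1 from -0.2147 to 0.9858, *Cdkn1b* between the hairpins from -0.035 to 0.0187 and *Fosb* between the hairpins from -0.0278 to 0.4591 likewise crossed 0. The causes were not tested.

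Deviations from the group means correlated from -0.0259 to 0.0742 between same-numbered libraries and from -0.0827 to 0.0277 between others. For shRNA1 and shRNA2 the same-numbered values were all above 0, at 0.0223, 0.0566 and 0.0742. The paper compared replicates pairwise in its qPCR but names no pairing for the RNA-seq. With correlations this small, the numbers were not taken as pairs in the main fit, and the block was tried as an alternative. The replicate block changed 0 of 30 calls of the 10 genes, with *Plk2* at 0.99 and 2.07 and *Gadd45g* at -3.22 and -3.51 with shRNA1 and shRNA2. Where a left-out library leaves nt-shRNA with 1 library, that library is assumed to vary like the other groups. Among the 10 genes, depth was lowest for *Gadd45g*, at 38 to 108 counts in the KD libraries.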
